A study of Drosophila melanogaster with 2 samples.

Results

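The 5 voltage-gated calcium channel genes Ca-alpha1T, Ca-alpha1D, cac, Ca-beta and stj were examined among 13945 protein-coding genes for binding by scratch (scrt), a neuronal DNA-binding protein with zinc fingers, related to Snail. They were taken by name, as genes for pore-forming and auxiliary subunits, and every peak with its summit in the gene body or within 5 kb of it was counted as theirs. Such peaks numbered 11 of the 6407 reproducible peaks in the series and 53 of the 30000 peaks in its pooled list. The material was whole Drosophila melanogaster embryos of both sexes, collected at 4 to 24 h, from a transgenic line stably expressing scrt with GFP at its C terminus. There were 2 samples, biological replicates 3 and 4 of this 1 line, with no untagged or unbound group among them. A free-text description calls both of them input, while the antibody field gives scrt and points to a control elsewhere, and they were treated as scrt immunoprecipitations. In whole embryos, binding in fewer cells and weaker binding in each cell cannot be told apart.

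Voltage-gated calcium channels open when the membrane is depolarised and let calcium into the cell, where it triggers transmitter release, muscle contraction and gene regulation. Each channel has 1 large alpha1 subunit that forms the pore and the voltage sensor. The cytoplasmic beta subunit and the extracellular alpha2delta subunit bring high-voltage-activated channels to the surface and tune their gating. T-type pores open at low voltage and can work without these partners. In flies cac forms the presynaptic channel of synapses, Ca-alpha1D is the L-type pore of muscle and neurons, and Ca-alpha1T is the T-type pore. Ca-beta encodes the beta subunit, and stj (straightjacket) encodes an alpha2delta protein needed for cac at nerve terminals.

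A peak carries the authors' signal, an enrichment value on a scale of its own in each list, so signals are compared within a list and lists are compared by rank (rank 1 is the strongest). The list of reproducible peaks, called optimal here, was made by thresholding on the irreproducible discovery rate (IDR), and it held the 6407 pooled peaks of highest signal. Its weakest peak had a signal of 193.07 and the first pooled peak outside it 193.05. Each replicate also had a list of 30000 peaks, in which the first 6407 are called leading. With 1 group and no reads, there was no contrast to test, and the values below are descriptions set beside the same values over all genes or all peaks. Read depth is unknown.

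Of the 5 genes, 3 had optimal peaks and 2 had none. Ca-alpha1T had 6, Ca-beta 3 and stj 2, whereas Ca-alpha1D and cac had 0. By the same rule 51.6% of protein-coding genes had an optimal summit, and the share was higher among longer genes, at 63.1% in the ninth decile of genes by length, where stj lies, and 78.3% in the longest decile, which holds the other 4. Having a peak is therefore common for genes of this length, and 3 of 5 is no more than that background. The bound members were set apart by the strength of their leading peaks, at ranks 15, 39 and 103 of 6407. An optimal summit at rank 103 or better was found in the windows of 1.99% of protein-coding genes and of 4.37% of those in the longest decile. This threshold was set at the weakest of the 3 leading peaks after their values were known, so it describes them and tests nothing.

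The sequences around the summits are shown for the strongest and the promoter peaks of Ca-alpha1T and Ca-beta, to set the matches in the leading peaks beside those in weaker peaks of the same genes and in the best subthreshold peaks of the unbound pore genes. Each is the 201 bases centred on a summit on dm6, taken from the RefSeq copy of that assembly and written 5′ to 3′ on the strand of the gene. Capitals mark every match, on either strand, to 6 short motifs. These were the E-box CAGGTG, its longer form CAACAGGTG, the first letters of that form (CAACAG), a word that overlaps them (GCAACA), another E-box (CAGCTG) and the repeat GAGAGA. The windows are, in order, the leading Ca-alpha1T peak (chrX:6193537-6193737, minus strand), the Ca-alpha1T promoter peak (chrX:6192435-6192635, minus), the leading Ca-beta peak (chr2L:11168204-11168404, minus), the Ca-beta peak at its distal promoter (chr2L:11203737-11203937, minus), and the strongest pooled peaks of Ca-alpha1D (chr2L:16160968-16161168, plus) and cac (chrX:11981720-11981920, minus), which fell below the threshold. The window of the leading stj peak is not shown.
Ca-alpha1T leading peak: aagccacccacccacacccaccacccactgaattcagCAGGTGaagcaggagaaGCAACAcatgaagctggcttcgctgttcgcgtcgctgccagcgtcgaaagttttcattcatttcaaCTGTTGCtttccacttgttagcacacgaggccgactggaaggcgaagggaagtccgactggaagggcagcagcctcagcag
Ca-alpha1T promoter peak: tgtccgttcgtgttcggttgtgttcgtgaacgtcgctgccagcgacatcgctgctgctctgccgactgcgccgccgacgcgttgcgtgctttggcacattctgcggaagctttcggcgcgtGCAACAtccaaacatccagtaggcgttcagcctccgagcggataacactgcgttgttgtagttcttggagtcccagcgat
Ca-beta leading peak: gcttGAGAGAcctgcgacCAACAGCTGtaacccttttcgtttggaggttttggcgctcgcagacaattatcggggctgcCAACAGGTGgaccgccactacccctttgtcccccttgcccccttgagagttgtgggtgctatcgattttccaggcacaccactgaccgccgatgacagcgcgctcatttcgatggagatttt
Ca-beta distal promoter peak: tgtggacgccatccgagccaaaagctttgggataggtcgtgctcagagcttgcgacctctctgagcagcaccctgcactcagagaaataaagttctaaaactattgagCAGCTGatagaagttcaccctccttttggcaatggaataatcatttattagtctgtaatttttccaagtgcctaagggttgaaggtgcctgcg
Ca-alpha1D subthreshold peak: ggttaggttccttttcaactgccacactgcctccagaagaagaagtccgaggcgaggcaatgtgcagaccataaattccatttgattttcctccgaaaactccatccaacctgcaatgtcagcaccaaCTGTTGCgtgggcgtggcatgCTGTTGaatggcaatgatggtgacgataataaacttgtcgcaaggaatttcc
cac subthreshold peak: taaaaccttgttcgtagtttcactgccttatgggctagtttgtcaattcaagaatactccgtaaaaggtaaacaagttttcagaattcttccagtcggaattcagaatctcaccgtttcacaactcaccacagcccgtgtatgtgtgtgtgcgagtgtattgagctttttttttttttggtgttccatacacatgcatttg

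Among the pore genes, Ca-alpha1T had the strongest peak of any member, just upstream of its start. The gene (FBgn0264386) lies on the minus strand of X, 6104085 to 6192483, is 88.4 kb long and has 1 annotated start for its 5 transcripts. The leading peak, at X, 6193217 to 6193968, had a pooled signal of 5183 (rank 15) with its summit 1154 bp upstream of that start. Its signal was 2788 at rank 18 in the replicate 3 list and 2428 at rank 15 in the replicate 4 list, with the summits of the replicates 5 bp and 0 bp away from the pooled one. The site is intergenic: on its other side CG32750, which is transcribed towards Ca-alpha1T, ends 1100 bp from the summit. No other annotated start was closer than that of Ca-alpha1T. Windows reaching 1 kb or less beyond the gene leave this peak out, and the best Ca-alpha1T rank is then 1434 (1 kb) or 3930 (gene body).

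A second, separate peak sat on the Ca-alpha1T start itself. Its signal was 611 (rank 1434) at X, 6192346 to 6192681, with the summit 52 bp upstream of the start, with ranks of 1597 (replicate 3) and 1253 (replicate 4). The other 4 optimal peaks were weak and intronic. In the direction of transcription they lay 12.8, 23.9, 30.4 and 41.3 kb from the start, the first pair in intron 2 and the second pair in intron 3 of all 5 transcripts. Their signals were 251, 206, 286 and 220, at ranks 4642, 5944, 3930 and 5459, all below the median of 313 for optimal intronic peaks. They ranked better in replicate 3, at 4104, 4506, 3107 and 4599, than in replicate 4, at 5765, 10225, 5842 and 6853, so that 2 of the 4 were not among the leading peaks of replicate 4. No optimal summit lay farther along, in the remaining part of the 88.4-kb gene.

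The other pore genes had only weak pooled peaks. All 5 members had at least 1 pooled summit, as did 74.8% of protein-coding genes, and that list keeps background. Ca-alpha1D (FBgn0001991; 2L, 16165831 to 16190540, plus strand, 24.7 kb) had 4 of them, with signals of 124, 119, 110 and 77.9 at ranks 10635, 11161, 12108 and 17482, all under the threshold of 193. Its transcripts use 2 starts, 5 transcripts each, and the 2 pooled summits at promoters lay 20 bp and 179 bp from the downstream start. Those 2 matched the same peaks of the replicates, at rank 9324 in replicate 3 and 11668 in replicate 4. No pooled summit fell within 500 bp of the upstream start.

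The cac gene (FBgn0263111; X, 11931280 to 11985087, minus strand, 53.8 kb) had 3 pooled peaks in its 63.8-kb window, with signals of 83.5, 71.1 and 54.6 at ranks 16231, 19136 and 25077. The weakest of these lay 69 bp from the start that 16 of its 18 transcripts use and overlapped a peak in replicate 3 alone, at rank 23876. The stronger pair lay 644 and 886 bp from a downstream start used by 1 transcript and matched 1 peak of each replicate, at ranks 14366 and 16452. Per 10 kb of window cac had 0.470 pooled summits, against a median of 2.55 in the longest decile of genes, where 9.53% of genes had a lower density. The density of Ca-alpha1D was 1.15, of Ca-alpha1T 2.03 and of Ca-beta 3.83.

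Both auxiliary subunit genes had a strong peak at a start. Ca-beta (FBgn0287724; 2L, 11156118 to 11203544, minus strand, 47.4 kb) has 9 transcripts and 4 annotated starts. Its leading peak, at 2L, 11167991 to 11168554, had a pooled signal of 2674 (rank 103) and lay 408 bp upstream of the most downstream start, which serves 4 of the 9 transcripts. It had a signal of 1545 in replicate 3 (rank 84) and 1229 in replicate 4 (rank 117). For the other 5 transcripts the summit is intronic, 35.2 kb into the longest of them.

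The Ca-beta starts were unequally marked. The most upstream start, used by 1 transcript, had an optimal peak of 334 (rank 3183) with its summit 293 bp upstream. The ranks of this peak were 3572 (replicate 3) and 3264 (replicate 4). Another optimal peak, of 352 (rank 2974), lay 4.28 kb downstream of it in intron 2 of that transcript, ranked 2580 in replicate 3 and 3552 in replicate 4. The middle starts, 3 bp apart and used by the remaining 4 transcripts, had no optimal summit within 500 bp, and the pooled summit nearest to them, 135 bp away, had a signal of 46.6 (rank 29282). The strongest signal at a Ca-beta start was thus that of the most downstream one, at 2674, against 334 at the most upstream one. Ca-beta had 19 pooled peaks below the threshold, the most of any member. The best of them was at 164 (rank 7776) in the same long intron. Some of the 19 lay inside CG6287 or nearest to the start of another gene, and are counted here by position alone. Some also matched the same replicate peaks as a neighbouring summit.

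The alpha2delta gene stj (FBgn0261041; 2R, 13805794 to 13819571, plus strand, 13.8 kb) had its leading peak on its first exon. The peak, at 13805691 to 13806291, had a pooled signal of 4046 (rank 39). It had a signal of 2350 in replicate 3 (rank 32) and 1690 in replicate 4 (rank 58), with summits 0 bp and 2 bp from the pooled one. The summit lay 194 bp downstream of the start of 2 of the 3 transcripts, in their 5′ UTR, and upstream of the start of the remaining transcript. A second optimal peak, of 462 (rank 2051), lay beyond the far end of stj, in an intron of fl(2)d and 2137 bp from the start of that gene. It is in the count for stj by its position alone, and without it stj had 1 optimal peak.

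In each of the 3 bound windows the leading peak stood well above the next. The leading peak exceeded the next optimal peak of its window by 8.75 times at stj, 8.48 times at Ca-alpha1T and 7.59 times at Ca-beta. At stj the next peak is the one inside fl(2)d, so the gene itself has no such ratio. Over the 3827 protein-coding genes with 2 or more optimal summits the median ratio was 1.68, and 2.95% of them reached 7.59. Among the 183 of these genes with a peak at rank 103 or better, however, the median was 5.56 and 38.3% reached 7.59, so the wide gap is common where a peak is this strong. The ratio was chosen after the values were seen, and neighbouring genes can share peaks in these counts.

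**Figure D1:**
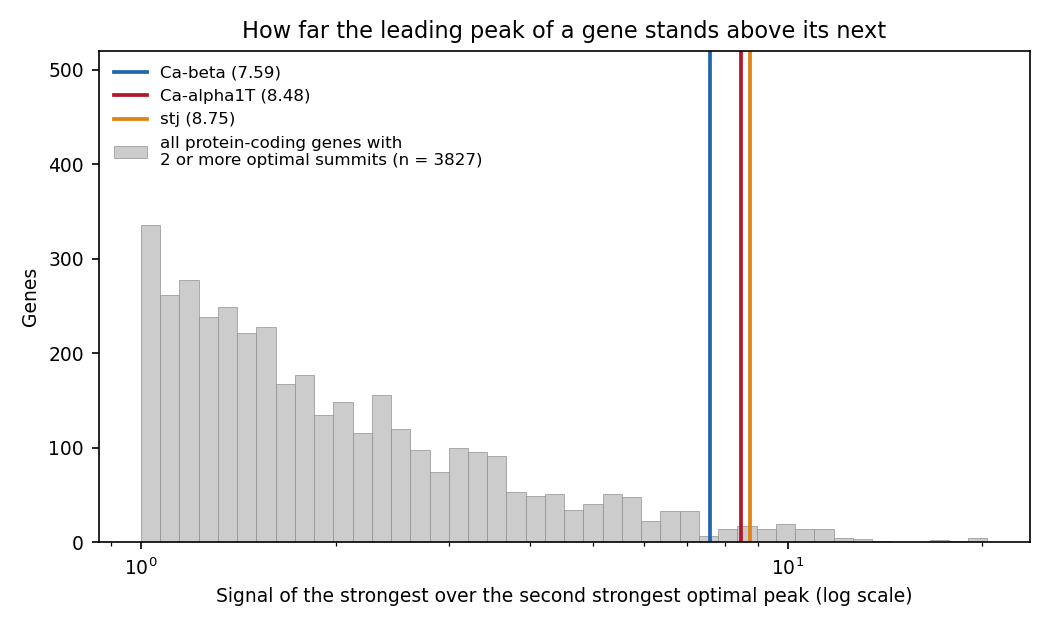
Histogram of the signal of the strongest over the second strongest optimal peak (log scale) for the 3827 protein-coding genes with 2 or more optimal summits, with vertical lines for stj, Ca-alpha1T and Ca-beta. The lines stand at 8.75, 8.48 and 7.59, above the median of 1.68.

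Of the 11 optimal peaks, 4 were at promoters (within 500 bp of a start), 6 in introns and 1 intergenic, against 47.4%, 36.1% and 13.6% of all optimal summits. None was in a coding exon, a class with 0.437% of all optimal summits. With 250 bp in place of 500 bp, 2 of the 11 were at promoters, without the Ca-beta peaks at 408 and 293 bp. The promoter peaks of the members had signals of 334 to 4046, and the intronic ones of 206 to 462, so the ranges overlapped. The highest intronic value is that of the peak inside fl(2)d. Over all optimal peaks the medians of these classes were 369 and 313.

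Each of the 11 peaks was present in both replicates. All had an overlapping peak in each replicate list and 9 were among the leading peaks of both, against 77.7% of all optimal peaks; the optimal list was made from these replicates, so this is no independent agreement. The 2 that were not are the weakest intronic peaks of Ca-alpha1T. Ranks were better in replicate 3 for 8 of the 11, against 53.0% of the 6252 optimal peaks found in both lists. The 3 that ranked better in replicate 4 were the leading and promoter peaks of Ca-alpha1T and the distal promoter peak of Ca-beta.

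**Figure D2:**
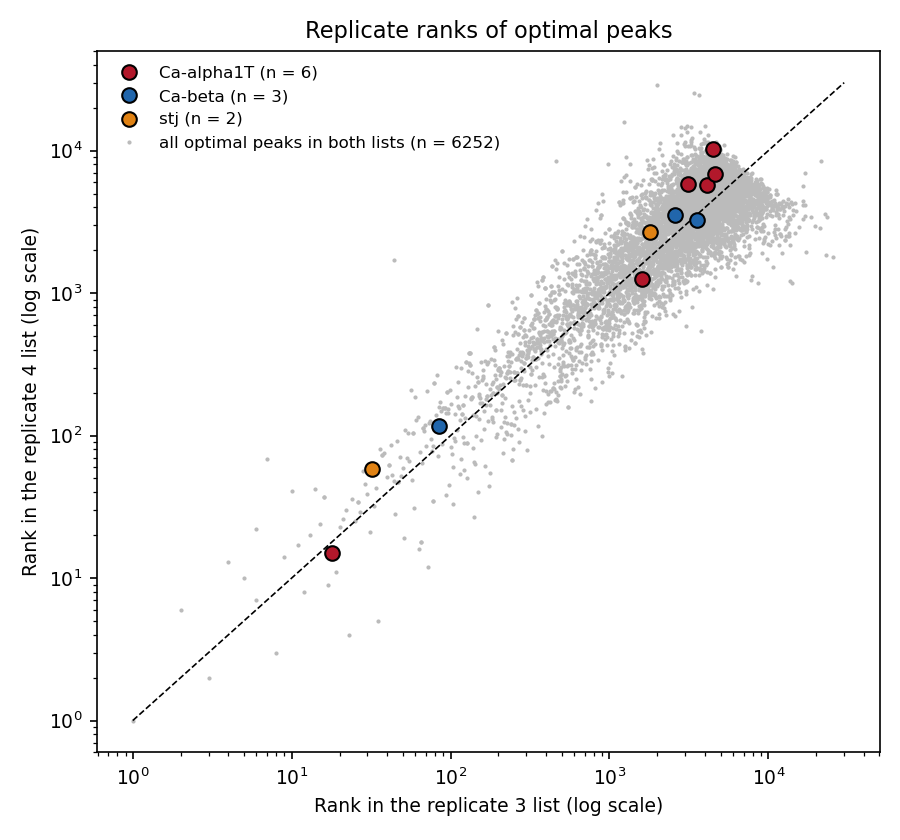
Rank in the replicate 4 list against rank in the replicate 3 list (log scales, 1 is strongest) for the optimal peaks of Ca-alpha1T, Ca-beta and stj, in colour, and for the 6252 optimal peaks found in both lists, in grey. The leading peaks lie near the dashed line of equal rank, and the 4 intronic peaks of Ca-alpha1T lie above it, at ranks 5765 to 10225 in replicate 4.

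CAGGTG, the E-box bound by Snail-family zinc fingers, was found within 100 bp of 3 of the 11 summits, and these were the leading peaks of Ca-alpha1T, Ca-beta and stj. Of all optimal peaks 7.68% held it, and of the 103 strongest 17.5% did. Its centre lay 4.5 bp from the summit at stj, 15.5 bp at Ca-beta and 60.5 bp at Ca-alpha1T. At Ca-beta it was part of the longer CAACAGGTG, in capitals in the window printed above, which occurs at 1.75% of all optimal summits and 6.8% of the 103 strongest. None of the other 8 optimal peaks of these genes held CAGGTG.

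The shorter words were found at more of the peaks. GCAACA was found at 6 of the 11 summits (31.1% of all optimal peaks), and 5 of them were among the 6 Ca-alpha1T peaks, whereas none of the 3 Ca-beta peaks held it. CAACAG, which overlaps GCAACA and is contained in CAACAGGTG, was found at 5 of the 11 (24.7% of all). CAGCTG was found at 3 of the 11 (12.6% of all), 2 of them at Ca-beta, and GAGAGA at 2 (14.3% of all). Of the 11 peaks 3 held none of the 6 motifs: the intronic peaks at rank 5459 in Ca-alpha1T and rank 2974 in Ca-beta, and the stj peak inside fl(2)d. The strongest pooled peak of Ca-alpha1D held CAACAG and GCAACA, and that of cac held none, so these short matches were not limited to peaks above the threshold. The GC content of the 201-bp windows at the leading peaks was 59.2% at stj and 55.7% at Ca-alpha1T and Ca-beta, against medians of 45.3% for the 103 strongest optimal peaks and 39.8% for all. It was also high at the promoter peak of Ca-alpha1T, at 58.7%, and ran from 29.9% to 46.3% in the other 7. Its part in the motif counts was not tested.

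In the longest decile the median was 2 optimal summits, and 1204 of 1395 genes had fewer than the 6 of Ca-alpha1T. For Ca-beta, 825 genes had fewer than its 3. Besides Ca-alpha1D and cac, 301 other genes of that decile had no optimal summit. In the ninth decile the median was 1, and 862 of 1394 genes had fewer than the 2 of stj. Per 10 kb of window Ca-alpha1T had 0.610 optimal summits, Ca-beta 0.522 and stj 0.841, so the gene with the most summits was not the densest. The part of gene length in the counts of the members was not tested, and cac, at 53.8 kb, had 0.

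**Figure D3:**
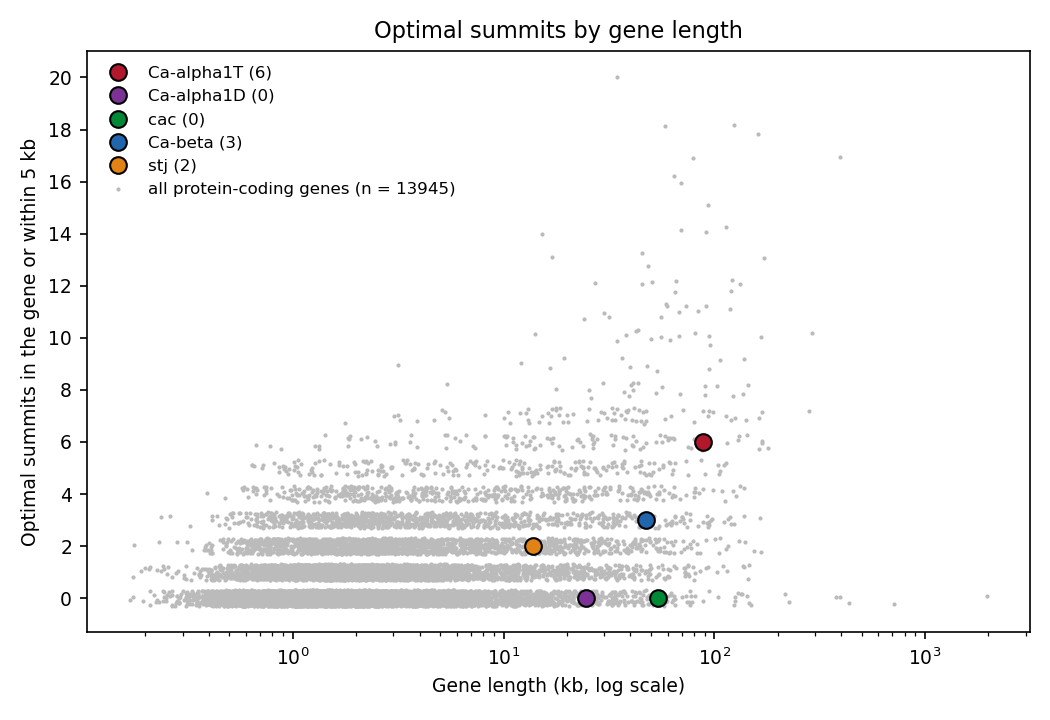
Number of optimal summits in the gene or within 5 kb against gene length (kb, log scale) for the 5 channel genes, in colour, and for 13945 protein-coding genes, in grey with a small vertical jitter. Ca-alpha1T has 6, Ca-beta 3 and stj 2, and Ca-alpha1D and cac are on the 0 line with many genes of like length.

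Other genes of calcium channels, their partners, calcium handling and other cation channels were bound about as often as genes of their length. Of 33 such genes 25 had an optimal summit by the same rule (51.6% of all protein-coding genes), and of the 23 in the longest decile 18 did (78.3% of that decile). For 12 of the 25 the strongest peak was nearest to the start of another gene. Only Fife among the 33 had a peak at rank 103 or better.

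Of the other alpha2delta genes, Ca-Ma2d, a muscle alpha2delta, had 3 optimal peaks, the strongest of 2150 (rank 175) in an intron, and stol had no optimal and no pooled peak. Of 12 channel partners and modulators, 11 of them in the longest decile (78.3% bound over all its genes), 11 were bound. They were led by Fife, an active zone protein, at 5562 (rank 10), by Rgk2, of a family of small G proteins that inhibit calcium channels in mammals, at 2528 (rank 119, 69 bp from its start), and by Rbp, the Rim-binding protein that ties cac to the active zone, at 1848 (rank 232). The Rbp peak was intronic and nearest to the start of h-cup. The strongest peaks of Rim, Rgk1, Rgk3, CASK and Syt1 were also nearest to the start of another gene. The vesicle priming gene unc-13, on chromosome 4, had no pooled peak. CaMKII, on the same chromosome, had 2 optimal peaks, the stronger of 588 (rank 1513).

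Of 8 genes for calcium stores, entry and extrusion, 6 of them in the longest decile, 6 were bound. Beside this list and the next 2 stand 51.6% of all protein-coding genes and 78.3% of the longest decile. The lists mix genes of different length, so their counts are not read as high or low. The peak of the IP3 receptor gene Itpr (1248) was nearest to the start of Nmdar1 and that of the exchanger gene Calx (1020) to that of Rlip, while the peak of RyR, the ryanodine receptor gene, (808) was nearest to its own start. PMCA, also on chromosome 4, and Stim were unbound. Of 7 calcium-dependent enzymes, 3 of them in the longest decile, 5 were bound, with CanA1 and rut unbound. The bound genes were led by the phospholipase gene norpA (1713) and the calcineurin subunit genes CanB (1387) and CanB2 (700). The CanB2 peak was nearest to the start of CG46385. Of 4 genes of other cation channels, 2 of them in the longest decile, 2 were bound. These were NaCP60E (939) and tipE (354), each with its strongest peak nearest to another start. The sodium channel gene para and the leak channel gene na were unbound.

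**Figure D4:**
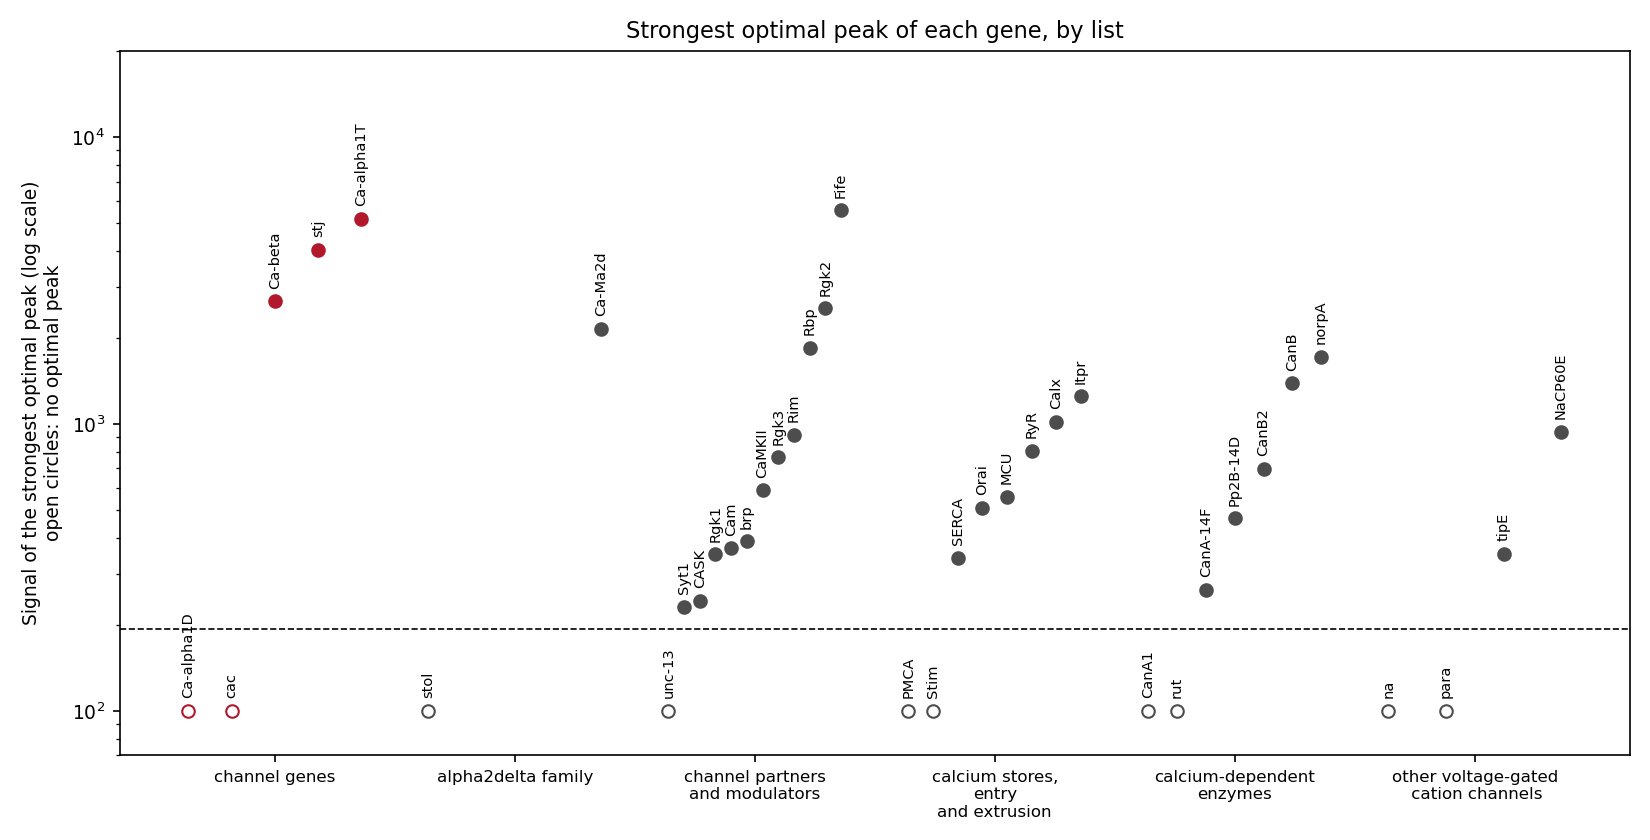
Signal of the strongest optimal peak (log scale) of each channel gene, in red, and of each gene in 5 lists of related calcium and channel genes, in grey; open circles at the bottom are genes with no optimal peak and the dashed line is the threshold of 193. Ca-alpha1T, stj and Ca-beta stand at 5183, 4046 and 2674, a range that only Fife (5562) reaches from the other lists.

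In the order of the optimal list, the peaks just above and below the leading peak of Ca-alpha1T were nearest to the starts of Dh44-R2 (5264) and unc79 (5146). Those around the stj peak were nearest to CG6184 (4123) and gprs (4039), and those around the Ca-beta peak to CG13390 (2691) and Tina-1 (2663). All 6 of these neighbours were promoter peaks.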

How the data were processed

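Chromatin immunoprecipitation and sequencing of scrt-GFP was performed on 2 samples, with sonicated fragments of 200 to 800 bp per the labels. The 4 deposited lists are narrowPeak files on dm6. Per the file listings deposited with the samples, replicate 3, replicate 4 and their pool were each called against control alignments, keeping background, and the optimal list was derived from all of these. No peak caller, aligner or IDR threshold is named in the sources used here. The signal of each peak is the authors' deposited enrichment value. The deposited −log10 q-value reached the same maximum in 81.3% of the optimal list, so ranks rest on signal. Summits were column 2 plus column 10 of each file.

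Genes and starts came from Ensembl release 115, and 0 peaks ran past the ends of the RefSeq chromosomes. Summits within 500 bp of a start were called promoter, and the rest were placed by exon, intron or intergenic sequence. Replicate matches needed 1 bp of overlap, and the best-ranked match was used. Gene lengths were cut into 10 equal groups of protein-coding genes. The lists held 34 names of 33 distinct related genes, 2 found through a synonym. The members, gene lists and motifs were chosen with earlier results of these data known. All members were named, with up to 3 bound genes of highest signal and 2 unbound genes per list, and the genes beside each leading peak by rank. The single group allowed no test. Alternatives were other flanks, windows and overlaps, single replicates, the stronger optimal peaks, merged summits and all annotated genes as background. The steps were tested on simulated data. Python 3.11.15, numpy 2.4.6 and pandas 2.3.3 were used.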

Additional observations from a re-analysis of the deposited data

How the results depend on the processing

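Ca-alpha1T, Ca-beta and stj had optimal peaks under the alternatives run, and Ca-alpha1D and cac gained one with a flank of 10 kb. All 5 genes then counted as bound. The Ca-alpha1D peak, of 1640 (rank 282), lay 7842 bp outside the gene and nearest to lncRNA:CR44735. That of cac, of 209, was nearest to Sclp. The share of protein-coding genes bound at this flank was not computed, so the 5 of 5 has no background beside it. At 5 kb the share was already 78.3% in the longest decile. There were 7 optimal peaks in gene bodies alone and 9 with a flank of 1 kb, in place of 11. Both leave out the leading peak of Ca-alpha1T, whose best rank is then 3930 and 1434 in place of 15. In gene bodies the share of protein-coding genes with a peak was 15.4% in place of 51.6% (48.9% over all annotated genes). The 15.4% was not split by gene length, so it is no matched background for members that mostly lie in the longest decile. The stronger 3203 optimal peaks held 7 member peaks, 100% of them leading in both replicates and 57.1% at promoters. With promoters drawn at 250 bp from a start, 18.2% of the member peaks were at promoters in place of 36.4%. With the lists of single replicates, 3 members were bound in each, by 9 to 12 peaks, 33.3% to 44.4% of them at promoters. Chosen after seeing the data were leaving out peaks nearest to another gene, which left 10, and gene bodies alone for the pooled peaks (40 in place of 53) and for the related genes bound (19 in place of 25). The remaining alternatives moved no value by over 1.5 times. No paired analysis was possible because the 2 samples form 1 group. Unknown depth limits what can be said of the peaks below the threshold.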
